A study of Rattus norvegicus with 9 samples.

Results

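A list of 51 skeletal muscle lineage and sarcomere genes was followed through cultured rat chondrocytes, and all 51 were among the 17588 genes of the expression table. The list was chosen by its response in these libraries: muscle markers were higher with IL-1β and stayed higher under co-culture. The changes of the listed genes between the 3 groups are therefore a description, with no test, and a count of listed genes in the direction that chose them supports nothing further.

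Skeletal muscle is built by a small set of lineage transcription factors (Pax7, Myf5, Myod1, Myog and Myf6, helped by Mef2 factors) that commit precursor cells and switch on the contractile genes. The products of those genes assemble into the sarcomere, where thick filaments of myosin slide along thin filaments of actin, troponin and nebulin that are anchored at the Z-disc. Acetylcholine receptors at the nerve contact, calcium channels and stores, a reinforced membrane and muscle forms of metabolic enzymes complete the fibre, and embryonic forms of several of these proteins precede the adult ones.

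The study measured polyadenylated RNA of primary chondrocytes from wild-type rats (labelled WT) in 3 groups of 3 libraries. Chondrocytes of the co-culture group shared medium with dermal fibroblasts held in the upper chamber of a transwell insert, after stimulation with IL-1β, an inflammatory cytokine. The IL-1β group received the cytokine alone, and the control group received routine culture without it. The labels do not state the strain or age of the rats, how much IL-1β was given or for how long, nor whether the 3 libraries of a group came from separate animals or cultures, so the spread between libraries may be technical. All 3 groups were enzyme-digested cartilage cells grown in serum, and every library is labelled as chondrocyte RNA.

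Values are FPKM, fragment counts scaled by transcript length and by library size. The FPKM of a library summed to 809839 to 811665 with co-culture, 796262 to 832248 with IL-1β and 771058 to 782435 in control, and 11337 to 11522 genes per library reached 1 FPKM. Read depth is unknown, and values of 0 can be failed estimates, since the ubiquitous genes Hprt1 and Polr2h were each listed at 0 in some libraries. Of 15 cartilage markers, 14 were in the table and their summed level was 708 ± 33.4 FPKM with co-culture, 497 ± 12.1 with IL-1β and 2111 ± 45.3 in control (SD, n = 3 each). Col2a1, the main collagen of cartilage, measured 250.04 ± 18.3 FPKM with co-culture, 168 ± 4.45 with IL-1β and 1042 ± 32.0 in control (SD, n = 3 each). Cartilage markers were thus present in every group and lowest with IL-1β.

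Of the 51 muscle genes, 34 reached 1 FPKM in at least 3 of the 9 libraries and were tested, and 17 did not. For every tested gene a limma fit on log2(FPKM + 1) over all 11732 such genes gave a log2 change with its standard error (SE), and a gene was called when its Benjamini-Hochberg adjusted p was under 0.05. Of the 34 tested muscle genes, 29 were at 1 FPKM or more in all 9 libraries. The other 5 (Smpx, Casq1, Chrng, Ckm and Pygm) fell short of it in at least 1 library, so that for those low in control the filter itself favoured a difference.

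The promoters of 6 of these genes are shown because 5 of them have the largest log2 change with IL-1β within their role and Eno3 went the other way. They are the 250 bases before the annotated start in RefSeq's rat assembly GRCr8, printed 5′ to 3′ in the direction of the gene. Capitals mark E-boxes (CANNTG, either strand), the sequence that Myod1 and Myog are known to bind, with Myog and Eno3 as the pair without a CAGCTG form. Myog (NCBI gene 29148) lies at chr13:48297226-48297475 on the plus strand, Acta1 (29437) at chr19:68784195-68784444 on the minus strand and Chrna1 (79557) at chr3:78877354-78877603 on the minus strand. Mylpf (24584), which RefSeq lists under the symbol Myl11, lies at chr1:191260039-191260288 on the plus strand. Klhl41 (117537) lies at chr3:74841868-74842117 on the plus strand and Eno3 (25438) at chr10:55868936-55869185 on the plus strand.
Myog: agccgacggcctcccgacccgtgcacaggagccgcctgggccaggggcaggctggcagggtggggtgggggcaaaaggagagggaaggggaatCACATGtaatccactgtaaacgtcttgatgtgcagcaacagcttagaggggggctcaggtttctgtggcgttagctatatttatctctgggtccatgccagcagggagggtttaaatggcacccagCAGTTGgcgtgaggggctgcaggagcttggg
Acta1: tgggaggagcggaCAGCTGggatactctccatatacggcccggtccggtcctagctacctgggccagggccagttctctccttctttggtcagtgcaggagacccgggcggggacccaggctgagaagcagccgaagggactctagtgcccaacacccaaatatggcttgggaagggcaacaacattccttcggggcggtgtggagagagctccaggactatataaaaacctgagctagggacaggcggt
Chrna1: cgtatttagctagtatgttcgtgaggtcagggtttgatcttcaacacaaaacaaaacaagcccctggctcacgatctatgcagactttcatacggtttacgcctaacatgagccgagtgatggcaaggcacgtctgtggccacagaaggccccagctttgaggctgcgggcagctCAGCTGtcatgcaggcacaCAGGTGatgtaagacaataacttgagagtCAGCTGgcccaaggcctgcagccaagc
Mylpf: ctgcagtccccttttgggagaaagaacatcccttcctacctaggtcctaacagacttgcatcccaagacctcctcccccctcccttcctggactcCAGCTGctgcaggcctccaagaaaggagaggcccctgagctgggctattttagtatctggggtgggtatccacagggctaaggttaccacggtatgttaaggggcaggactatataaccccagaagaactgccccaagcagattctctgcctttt
Klhl41: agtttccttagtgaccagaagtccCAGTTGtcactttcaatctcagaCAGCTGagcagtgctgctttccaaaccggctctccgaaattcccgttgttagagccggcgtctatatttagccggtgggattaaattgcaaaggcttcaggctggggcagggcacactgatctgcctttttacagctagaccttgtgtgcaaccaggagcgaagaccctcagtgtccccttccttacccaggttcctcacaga
Eno3: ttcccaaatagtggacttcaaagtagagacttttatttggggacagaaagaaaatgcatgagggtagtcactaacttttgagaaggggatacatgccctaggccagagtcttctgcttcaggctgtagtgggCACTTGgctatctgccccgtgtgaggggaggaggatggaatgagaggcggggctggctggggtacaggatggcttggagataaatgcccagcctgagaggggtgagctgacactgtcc

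RefSeq promoters matched 45 of the 51 genes by symbol, gene ID or synonym, in 49 windows of 250 bases, and 33469 windows made up the table. Any E-box (CANNTG) lay in 39 of the 49 muscle gene windows (79.6%) and in 65.5% of all windows. Its CAGCTG form lay in 19 of the 49 (38.8%), against 11.97% of all windows. The MEF2 motif, which Mef2 factors are known to bind, lay in 13 of the 49 (26.5%), against 2.96% of all windows, and the CArG box of serum response factor in 3 of the 49 (6.12%), against 1.497%. The NF-κB motif, bound by a factor that IL-1β is known to activate, lay in none of the 49 windows and in 3.54% of all windows. Each search took both strands, and every CAGCTG is also a CANNTG. Of the windows with a MEF2 motif, those of Myf6, Myh1, Myh4, Myoz1, Myoz2, Ttn and Xirp1 belong to genes under the filter. The tested genes with that motif were Casq2, Cav3, Klhl41, Myl1 and Smpx, and Xirp1 had it in more than 1 window. A match is a description of letters and not a site, and the absence of a match says only that these letters are not in the window.

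Among the 34 tested genes, 25 were called higher and 4 lower with IL-1β than in control, beside 26.5% of all tested genes called higher and 20.2% called lower. With co-culture against IL-1β, 3 were called higher and 1 lower, beside backgrounds of 11.9% and 10.1%. With co-culture against control, 27 were called higher and 2 lower, beside 21.8% and 12.2%. Without IL-1β replicate 2, 2 genes instead of 4 were called lower with IL-1β. The comparisons share libraries and chose the list, so nothing is read from these counts. Among the 29 genes at 1 FPKM or more in every library, the counts were 21 higher and 4 lower with IL-1β against control, 3 and 1 with co-culture against IL-1β, and 23 and 2 with co-culture against control. The median log2 change of the tested muscle genes was 0.80 with IL-1β against control, 0.09 with co-culture against IL-1β and 0.81 with co-culture against control, while the median over all tested genes was 0.02, 0.02 and 0.04 in the same comparisons.

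**Figure D1:**
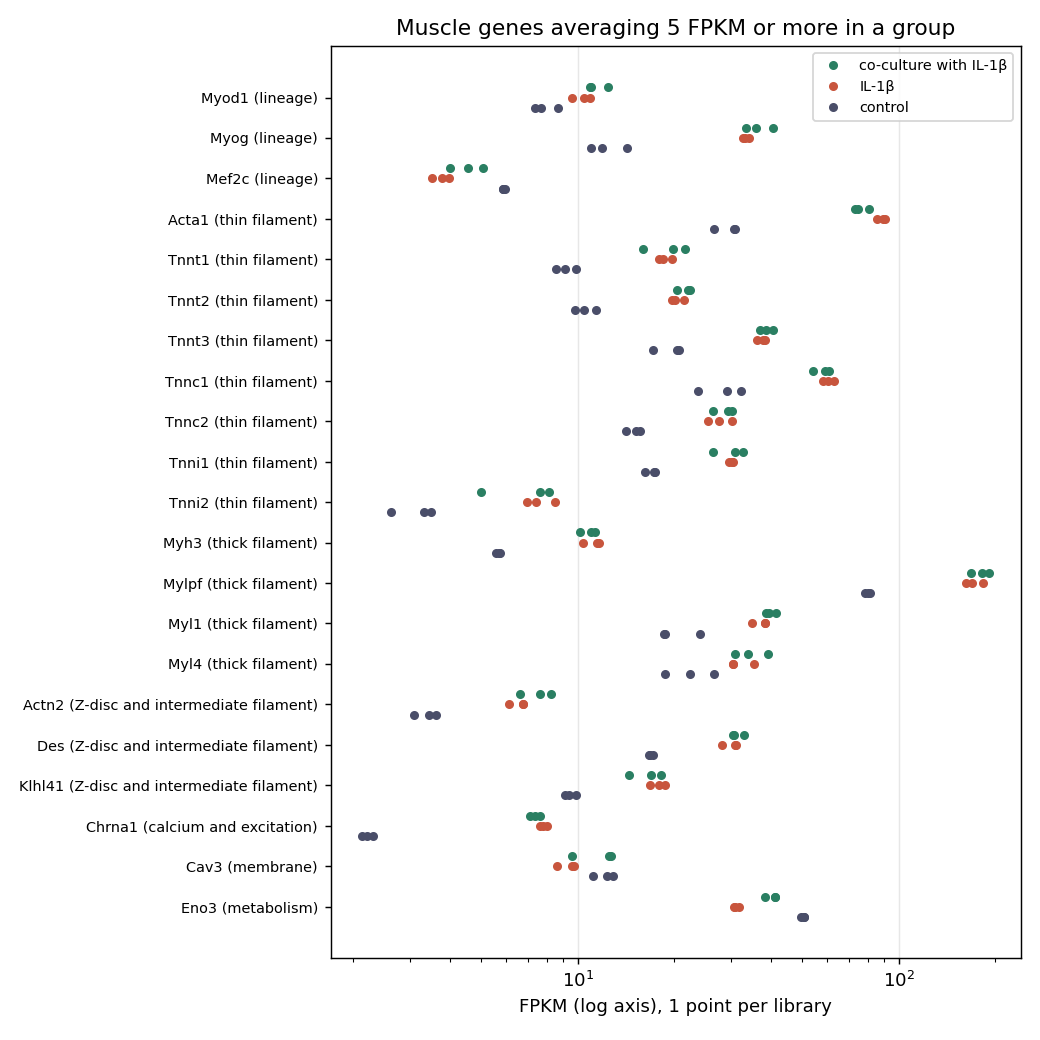
FPKM of the 21 muscle genes that averaged 5 FPKM or more in a group, on a log axis, with 1 point per library and the role of each gene in brackets. Points of co-culture and IL-1β lie together to the right of control for most genes, whereas Mef2c, Cav3 and Eno3 have their IL-1β points to the left of control.

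Of the lineage factors, Myog had the highest level and, of those tested, the largest log2 change with IL-1β. Myod1 was present in every group with a smaller change, Mef2c was lower with IL-1β, and Pax7, Myf5 and Myf6 were close to 0. Myog, the factor that starts terminal muscle differentiation, measured 40.6, 36.0 and 33.4 FPKM with co-culture, 34.2, 32.8 and 33.2 FPKM with IL-1β and 11.04, 14.2 and 11.9 FPKM in control. Its libraries with IL-1β, with or without fibroblasts, all lay above the control libraries and overlapped each other. The mean was 2.70 times control with IL-1β, a log2 change of 1.37 ± 0.09 (SE). With co-culture it was 1.10 times the IL-1β mean.

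Myod1, which commits cells to the muscle lineage, measured 10.98, 12.4 and 10.9 FPKM with co-culture, 10.9, 9.63 and 10.4 FPKM with IL-1β and 8.66, 7.34 and 7.70 FPKM in control. All IL-1β libraries exceeded all control libraries and all co-culture libraries exceeded all IL-1β libraries, although the closest libraries of the last step lay at 10.94 and 10.93 FPKM. The IL-1β mean was 1.31 times control (log2 change 0.35 ± 0.07, SE), the smallest ratio among the 25 genes called higher, and the co-culture difference from IL-1β was not called (log2 change 0.13 ± 0.07, SE). Of the summed FPKM of Myod1, Myf5, Myog and Myf6, Myog made up 75.4 ± 2.18 percent with co-culture, 75.9 ± 0.721 with IL-1β and 60.6 ± 4.90 in control (SD, n = 3 each).

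Mef2c, a Mef2 factor that is also known from maturing cartilage, was lower with IL-1β. It measured 4.01, 4.55 and 5.09 FPKM with co-culture, 3.52, 3.97 and 3.77 FPKM with IL-1β and 5.94, 5.86 and 5.87 FPKM in control. The 3 groups did not overlap, with control above co-culture and co-culture above IL-1β. Its log2 change was -0.54 ± 0.07 (SE) with IL-1β against control and 0.22 ± 0.07 with co-culture against IL-1β, and the second was not called.

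Pax7, the marker of muscle stem cells, reached at most 0.11 FPKM in any library, and Myf5, which acts early alongside Myod1, at most 0.26. Myf6, a factor of late differentiation, averaged 0.3 ± 0.0346 FPKM with co-culture, 0.09 ± 0.101 with IL-1β and 0.0233 ± 0.0404 in control (SD, n = 3 each), and its co-culture libraries all lay above the others. These 3 genes were under the level needed for a test.

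Of the thin filament, all 8 genes that were tested were called higher with IL-1β, beside 26.5% of all tested genes. Their ratios to control ran from 1.78 for Tnni1 to 3.01 for Acta1. Acta1, the actin of adult skeletal muscle, measured 80.7, 74.8 and 73.0 FPKM with co-culture, 89.2, 90.8 and 85.4 FPKM with IL-1β and 30.8, 30.7 and 26.6 FPKM in control. The groups did not overlap, and co-culture stood between control and IL-1β. The log2 change was 1.56 ± 0.06 (SE) with IL-1β against control and -0.21 ± 0.06 with co-culture against IL-1β. The second was the single call of a listed gene lower with co-culture than with IL-1β, and it was lost without IL-1β replicate 1 (-0.21), IL-1β replicate 2 (-0.20), co-culture replicate 2 (-0.20) or co-culture replicate 3 (-0.18). Acta1 is very close in coding sequence to the other actin genes, and the sources used here do not say how such reads were divided, so its level is uncertain.

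The troponins are the calcium switch of the thin filament: troponin T ties the complex to tropomyosin, troponin C binds calcium and troponin I holds contraction off. Tnnt1, the slow-fibre troponin T, measured 21.6, 19.8 and 16.0 FPKM with co-culture, 19.6, 18.4 and 18.0 FPKM with IL-1β and 8.59, 9.86 and 9.13 FPKM in control. Tnnt3, the fast-fibre form, measured 40.7, 37.0 and 38.7 FPKM with co-culture, 36.2, 37.9 and 38.4 FPKM with IL-1β and 17.2, 20.6 and 20.4 FPKM in control. Tnnt2, known from heart and from developing skeletal muscle, measured 22.1, 20.3 and 22.4 FPKM with co-culture, 19.7, 20.1 and 21.4 FPKM with IL-1β and 10.4, 11.4 and 9.78 FPKM in control. For each of the 3, co-culture and IL-1β libraries overlapped and all lay above control, with IL-1β means of 2.03, 1.93 and 1.94 times control for Tnnt1, Tnnt3 and Tnnt2.

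Tnnc1, the troponin C of slow fibres and heart, measured 58.8, 60.6 and 54.2 FPKM with co-culture, 58.0, 62.7 and 60.2 FPKM with IL-1β and 23.8, 32.3 and 29.2 FPKM in control. The fast-fibre form Tnnc2 measured 30.3, 29.5 and 26.3 FPKM with co-culture, 30.2, 25.6 and 27.5 FPKM with IL-1β and 15.2, 14.1 and 15.6 FPKM in control. Again neither gene's control libraries reached those of the other groups, and the IL-1β mean was 2.12 times control for Tnnc1 and 1.86 times control for Tnnc2. Among the inhibitory subunits, slow-fibre Tnni1 measured 32.8, 30.8 and 26.4 FPKM with co-culture, 30.5, 29.7 and 30.1 FPKM with IL-1β and 17.3, 17.4 and 16.2 FPKM in control. Fast-fibre Tnni2 measured 4.99, 7.61 and 8.15 FPKM with co-culture, 8.50, 7.40 and 6.96 FPKM with IL-1β and 3.33, 2.62 and 3.50 FPKM in control. Tnni2 varied most between co-culture libraries of the 21 genes in the plot of levels, with a coefficient of variation of 24.4%, and its lowest co-culture library still exceeded every control library.

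Slow and fast troponins kept similar proportions in their sum, with a difference in the troponin I pair. Of the summed FPKM of slow and fast forms, the slow Tnnt1, Tnnc1 and Tnni1 held 58.9 ± 1.76 percent with co-culture, 59.9 ± 0.978 with IL-1β and 59.2 ± 1.95 in control (SD, n = 3 each), and the groups overlapped. Of the Tnni1 and Tnni2 sum, Tnni1 held 76.4 to 86.8 percent with co-culture, 78.2 to 81.2 with IL-1β and 82.2 to 86.9 in control, so that IL-1β lay below control without overlap. The shares of Tnnt1 with Tnnt3 and of Tnnc1 with Tnnc2 overlapped between all groups. Neb, the ruler protein of the thin filament, whose transcript is very long, was under the filter at 0.453 ± 0.0321 FPKM with co-culture, 0.46 ± 0 with IL-1β and 0.157 ± 0.0115 in control (SD, n = 3 each). Its IL-1β libraries were all at 0.46 FPKM, against at most 0.17 in control. Xirp1, an actin-binding protein of muscle attachment sites, lay between 0.26 and 0.51 FPKM in all libraries, and its groups overlapped.

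**Figure D2:**
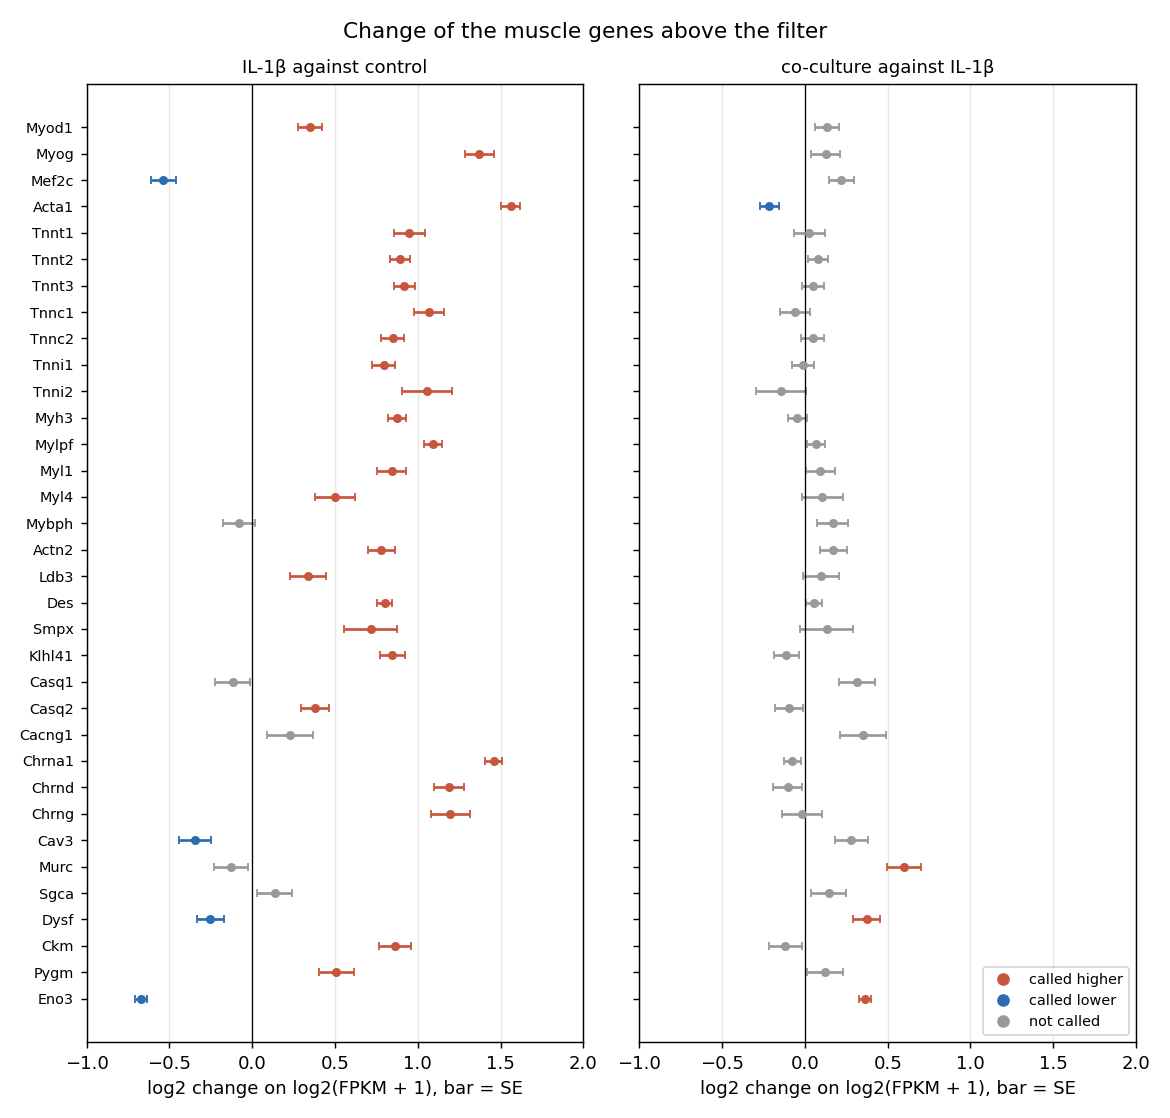
Log2 change of the 34 tested muscle genes on the log2(FPKM + 1) scale, with IL-1β against control on the left and co-culture against IL-1β on the right. Bars are standard errors and colours give the calls, which describe genes chosen by these comparisons. On the left 25 genes are called higher and 4 lower, and on the right most points lie close to 0 with Murc, Dysf and Eno3 called higher and Acta1 lower.

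In the thick filament, myosin light chains were abundant. Of the heavy chains the embryonic form had the highest level, while the adult forms were close to 0. Mylpf, the regulatory light chain of fast fibres, had the highest FPKM of all 51 genes in every group and measured 191, 182 and 168 FPKM with co-culture, 184, 162 and 169.6 FPKM with IL-1β and 78.4, 80.5 and 81.5 FPKM in control. The control libraries lay under all others, and co-culture overlapped IL-1β. The IL-1β mean was 2.14 times control (log2 change 1.09 ± 0.05, SE). By mean level Mylpf ranked 658 among all genes of the table with co-culture, 680 with IL-1β and 1405 in control.

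Myl1, the essential light chain of fast fibres, measured 38.6, 39.4 and 41.3 FPKM with co-culture, 38.4, 38.4 and 34.98 FPKM with IL-1β and 18.6, 24.1 and 18.8 FPKM in control. Myl4, the essential light chain of embryonic muscle and atrium, measured 39.2, 30.9 and 34.0 FPKM with co-culture, 35.4, 30.4 and 30.5 FPKM with IL-1β and 18.7, 26.5 and 22.4 FPKM in control. Both had every IL-1β library above every control library, by a mean ratio of 1.82 for Myl1 and 1.42 for Myl4. Of the summed FPKM of the 3 light chains, Mylpf held 70.7 ± 1.55 percent with co-culture, 71.2 ± 0.984 with IL-1β and 65.2 ± 3.37 in control (SD, n = 3 each), with every IL-1β library above every control library in that share.

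Myh3, the heavy chain of embryonic muscle, measured 11.3, 10.98 and 10.2 FPKM with co-culture, 10.4, 11.5 and 11.7 FPKM with IL-1β and 5.68, 5.56 and 5.71 FPKM in control. Its IL-1β mean was 1.98 times control (log2 change 0.87 ± 0.06, SE), and co-culture overlapped IL-1β. The neonatal chain Myh8 and the adult fast chains Myh1, Myh2 and Myh4 were all under the filter. Myh1 averaged 0.573 ± 0.0702 FPKM with co-culture, 0.397 ± 0.0603 with IL-1β and 0.427 ± 0.0252 in control (SD, n = 3 each), and its IL-1β and control libraries overlapped. Myh8 averaged 0.1 ± 0.06 FPKM with co-culture, 0.04 ± 0.01 with IL-1β and 0.113 ± 0.0252 in control (SD, n = 3 each), with every IL-1β library below every control library. Neither Myh2 nor Myh4 exceeded 0.03 FPKM. Myh7, the slow and cardiac chain, averaged 0.223 ± 0.0306 FPKM with co-culture, 0.22 ± 0.0173 with IL-1β and 0.05 ± 0.0265 in control (SD, n = 3 each), with every control library lowest. Of the summed FPKM of the 6 heavy chains, Myh3 held 92.2 ± 0.855 percent with co-culture, 94.4 ± 0.0992 with IL-1β and 90.3 ± 0.565 in control (SD, n = 3 each). These genes are close relatives that lie in part in a single cluster, so how their reads were divided is uncertain.

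Mybph, a myosin-binding protein, did not follow the light chains: it averaged 3.94 ± 0.359 FPKM with co-culture, 3.41 ± 0.479 with IL-1β and 3.66 ± 0.372 in control (SD, n = 3 each), its groups overlapped, and it was called in no comparison. Ttn, the giant protein that spans the sarcomere and has the longest coding sequence known in mammals, stayed at 0.02 to 0.07 FPKM, with every IL-1β library above every control library.

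**Figure D3:**
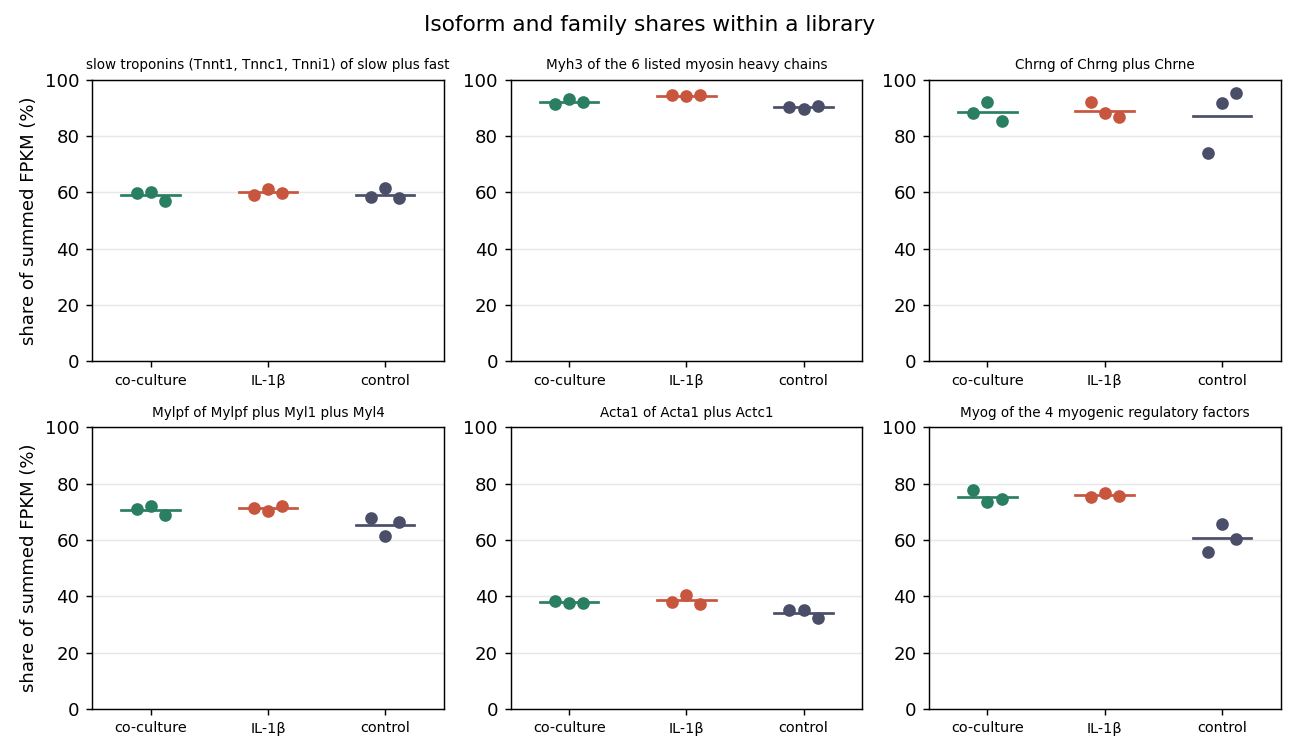
Shares of summed FPKM within each library for 6 sets of related genes, with 1 point per library and a line at the group mean. The slow troponin share and the Chrng share overlap between all groups, whereas the Myog share of the myogenic factors averages 75.4% with co-culture, 75.9% with IL-1β and 60.6% in control.

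At the Z-disc, the 5 tested genes were all called higher with IL-1β, beside 26.5% of all tested genes. Actn2, the actinin that crosslinks thin filaments there, measured 8.24, 7.66 and 6.60 FPKM with co-culture, 6.10, 6.74 and 6.75 FPKM with IL-1β and 3.44, 3.63 and 3.09 FPKM in control. Desmin (Des), the muscle intermediate filament that links neighbouring Z-discs, measured 33.1, 30.6 and 30.4 FPKM with co-culture, 28.2, 31.0 and 31.2 FPKM with IL-1β and 16.7, 16.8 and 17.2 FPKM in control. Klhl41, a kelch protein known to stabilise nebulin, measured 16.9, 14.4 and 18.1 FPKM with co-culture, 16.8, 17.9 and 18.8 FPKM with IL-1β and 9.87, 9.42 and 9.13 FPKM in control. The control libraries of these 3 genes lay under all others, and IL-1β means were 1.93, 1.79 and 1.88 times control for Actn2, Des and Klhl41.

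Ldb3, a scaffold that binds actinin, averaged 2.84 ± 0.52 FPKM with co-culture, 2.58 ± 0.33 with IL-1β and 1.83 ± 0.167 in control (SD, n = 3 each), and Smpx, a small protein of the muscle costamere, averaged 2.69 ± 0.107 FPKM with co-culture, 2.37 ± 0.212 with IL-1β and 1.10 ± 0.537 in control (SD, n = 3 each). Myoz2, which anchors calcineurin at the Z-disc, was under the filter at 0.963 ± 0.19 FPKM with co-culture, 0.883 ± 0.126 with IL-1β and 0.407 ± 0.185 in control (SD, n = 3 each), with every IL-1β library above every control library. Actn3 and Myoz1, the fast-fibre actinin and myozenin, reached at most 0.18 FPKM and overlapped between groups.

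The 5 tested genes of the list with the highest ratios of IL-1β to control were Acta1, Ckm and 3 subunits of the muscle acetylcholine receptor. Myh7, which was under the filter, had a higher ratio of 4.4. Chrnb1, the beta subunit, is not in the list and averaged 1.79 ± 0.11 FPKM with co-culture, 1.86 ± 0.164 with IL-1β and 1.19 ± 0.367 in control (SD, n = 3 each), a ratio of 1.56. Chrna1, the alpha subunit that binds acetylcholine, measured 7.65, 7.13 and 7.35 FPKM with co-culture, 7.62, 7.80 and 8.05 FPKM with IL-1β and 2.13, 2.31 and 2.20 FPKM in control. The control libraries lay apart from the others, and the log2 change with IL-1β was 1.46 ± 0.05 (SE), a mean of 3.53 times control. Chrnd, its delta subunit, averaged 4.11 ± 0.45 FPKM with co-culture, 4.50 ± 0.568 with IL-1β and 1.41 ± 0.00577 in control (SD, n = 3 each). Chrng, the fetal subunit that Chrne replaces in innervated muscle, averaged 3.23 ± 0.271 FPKM with co-culture, 3.27 ± 0.162 with IL-1β and 0.883 ± 0.326 in control (SD, n = 3 each). The ratio of IL-1β to control was 3.20 for Chrnd and 3.71 for Chrng, whose control mean was under 1 FPKM. Of its sum with Chrne, Chrng held 88.5 ± 3.27 percent with co-culture, 89.0 ± 2.75 with IL-1β and 87.0 ± 11.5 in control (SD, n = 3 each), and the groups overlapped in that share.

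Casq2, the calsequestrin of slow fibres and heart, averaged 4.10 ± 0.458 FPKM with co-culture, 4.43 ± 0.03 with IL-1β and 3.18 ± 0.376 in control (SD, n = 3 each), whereas Casq1, its fast-fibre relative, averaged 1.59 ± 0.185 FPKM with co-culture, 1.08 ± 0.167 with IL-1β and 1.27 ± 0.258 in control (SD, n = 3 each) and was called in no comparison. Cacng1, a subunit of the muscle voltage sensor, averaged 2.79 ± 0.249 FPKM with co-culture, 1.97 ± 0.315 with IL-1β and 1.56 ± 0.526 in control (SD, n = 3 each) and was called in the comparison of co-culture with control alone (log2 change 0.58 ± 0.14, SE). Its channel subunit Cacna1s averaged 0.857 ± 0.0586 FPKM with co-culture, 0.96 ± 0.07 with IL-1β and 0.58 ± 0.0458 in control (SD, n = 3 each), under the filter. Ryr1, the release channel of the calcium store, averaged 0.133 ± 0.0404 FPKM with co-culture, 0.143 ± 0.0153 with IL-1β and 0.06 ± 0.01 in control (SD, n = 3 each), and the calcium pump Atp2a1 averaged 0.283 ± 0.0666 FPKM with co-culture, 0.217 ± 0.0702 with IL-1β and 0.133 ± 0.0231 in control (SD, n = 3 each). For Cacna1s and Ryr1 all IL-1β libraries lay above all control libraries, and for Atp2a1 they overlapped.

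Of the 4 membrane genes, 2 (Cav3 and Dysf) were called lower and none higher with IL-1β against control, beside the background of 26.5% higher and 20.2% lower. With co-culture against IL-1β 2 (Murc and Dysf) were called higher, beside 11.9%. So few genes say little about the role as a whole. Cav3, the caveolin of muscle, measured 12.5, 12.7 and 9.63 FPKM with co-culture, 9.60, 8.63 and 9.76 FPKM with IL-1β and 12.3, 11.2 and 12.9 FPKM in control. Every IL-1β library lay below every control library, and co-culture overlapped both. Its log2 change was -0.35 ± 0.10 (SE) with IL-1β against control, a call that was lost without control replicate 3 (-0.30) or IL-1β replicate 2 (-0.30). With co-culture against IL-1β it was 0.28 ± 0.10 (SE), not called.

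Murc, a cavin of muscle caveolae, averaged 2.20 ± 0.3 FPKM with co-culture, 1.11 ± 0.122 with IL-1β and 1.30 ± 0.24 in control (SD, n = 3 each). The co-culture libraries lay above those of IL-1β, by 1.99 times on the means and 0.60 ± 0.10 (SE) on the log2 scale. Dysf, which is needed for membrane repair, averaged 2.34 ± 0.183 FPKM with co-culture, 1.58 ± 0.201 with IL-1β and 2.07 ± 0.123 in control (SD, n = 3 each), and its IL-1β libraries lay below both other groups, with a log2 change of 0.37 ± 0.08 (SE) for co-culture against IL-1β. Sgca, a sarcoglycan that ties the membrane to the matrix, averaged 2.97 ± 0.452 FPKM with co-culture, 2.59 ± 0.361 with IL-1β and 2.27 ± 0.276 in control (SD, n = 3 each) and was called in no comparison.

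Among the metabolic genes, Ckm and Pygm went with the sarcomere and Eno3 went against it. Ckm, the muscle creatine kinase, averaged 1.60 ± 0.0929 FPKM with co-culture, 1.84 ± 0.3 with IL-1β and 0.557 ± 0.119 in control (SD, n = 3 each), and Pygm, the muscle glycogen phosphorylase, averaged 1.38 ± 0.249 FPKM with co-culture, 1.18 ± 0.146 with IL-1β and 0.537 ± 0.138 in control (SD, n = 3 each). Both were under 1 FPKM in the control libraries, and their IL-1β means were 3.30 and 2.20 times control for Ckm and Pygm.

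Eno3, the enolase of muscle, measured 41.2, 41.3 and 38.3 FPKM with co-culture, 31.0, 30.6 and 31.8 FPKM with IL-1β and 50.5, 50.6 and 49.5 FPKM in control. The 3 groups did not overlap, with co-culture between IL-1β and control. The log2 change was -0.67 ± 0.04 (SE) with IL-1β against control, 0.36 ± 0.04 with co-culture against IL-1β and -0.31 ± 0.04 with co-culture against control. In control it was the second most abundant of the 51 genes, after Mylpf.

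Of the 25 genes called higher with IL-1β, 12 had a mean at least 2 times control, and the median ratio was 1.98. Under co-culture the ratio to IL-1β for the same 25 ran between 0.861 for Acta1 and 1.17 for Pygm with a median of 1.03, and all 25 were also called higher than control. This repeats the pattern on which the genes were chosen. The genes that left it were Mef2c, Cav3, Dysf and Eno3, which were called lower with IL-1β, and Mybph, Casq1, Sgca, Murc and Cacng1, which were not called.

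Summed over all 51 genes, the level was 788, 750.5 and 719.5 FPKM with co-culture, 744, 721 and 724 FPKM with IL-1β and 392, 422 and 402 FPKM in control. This was 0.0886 to 0.0971 percent of a library's summed FPKM with co-culture, 0.0894 to 0.0905 percent with IL-1β and 0.0507 to 0.0540 percent in control. The ratio of IL-1β to control was 1.80 for the sum, 1.72 without Mylpf and 1.97 without Eno3. By role it ran from 0.665 for metabolism and 0.822 for the membrane to 2.16 for calcium and excitation and 2.20 for the thin filament. The metabolism sum is nearly all Eno3, while Ckm and Pygm had ratios of 3.30 and 2.20. Co-culture against IL-1β gave 1.31 for the membrane, 1.27 for metabolism and 0.96 for the thin filament. Fewer cells of a type and less RNA per cell cannot be told apart in such bulk libraries.

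**Figure D4:**
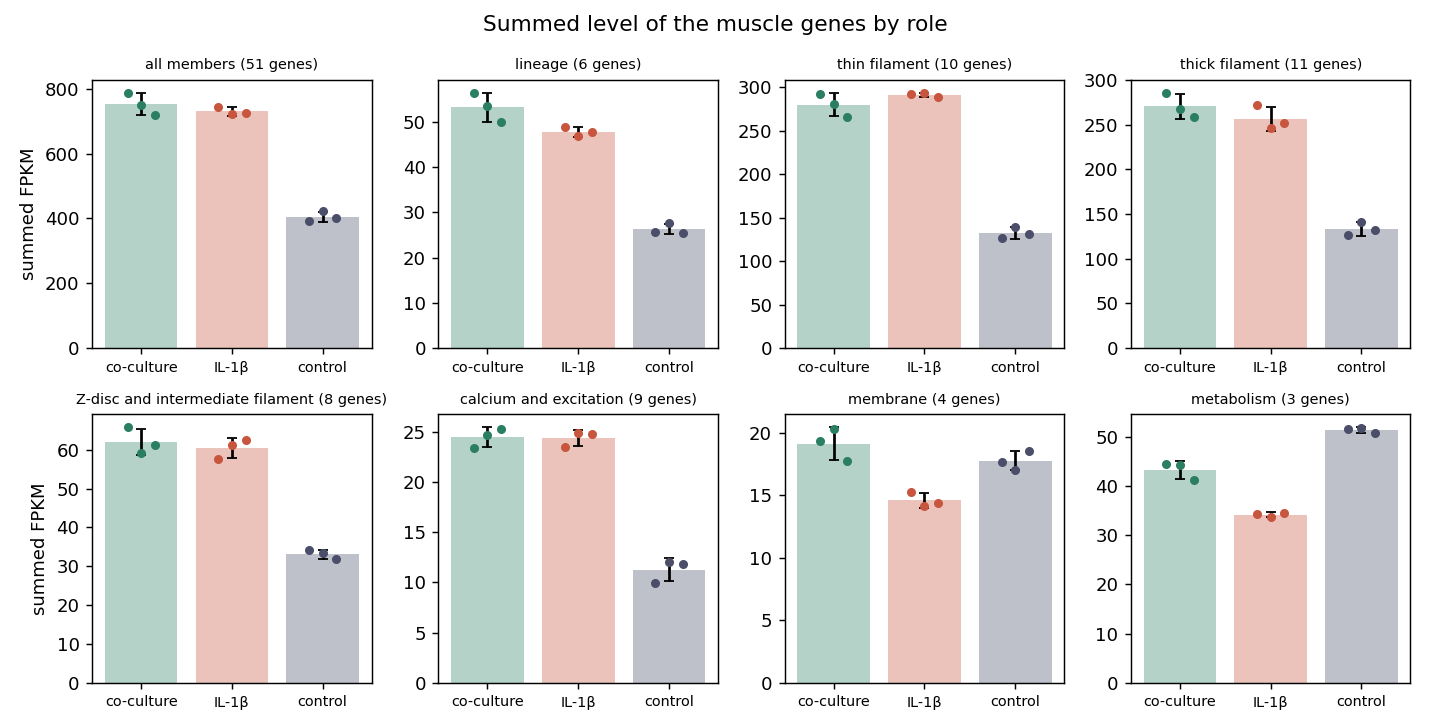
Summed FPKM of the muscle genes in all and by role, with bars from 0 at the group mean, error bars of 1 SD over 3 libraries and 1 point per library. The sum over all genes is 720 to 788 with co-culture, 721 to 744 with IL-1β and 392 to 422 in control, and the membrane and metabolism panels have their lowest bar at IL-1β.

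Libraries of a group were close. The median coefficient of variation over the 21 genes in the plot of levels was 7.29% with co-culture, 5.45% with IL-1β and 7.12% in control. In the co-culture group 12 of the 21 were highest in replicate 1 and 13 were lowest in replicate 3.

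Further muscle genes outside the list were read to see how far the pattern extended. Of 124 such genes 115 were in the table, and 68 were tested. With IL-1β against control 37 rose and 16 fell, beside the same backgrounds of 26.5% and 20.2%, and their median log2 change was 0.25. Several of those that rose, with Pvalb, Jsrp1 and Megf10 among them, reached 1 FPKM in no control library. For such genes the filter itself favoured a difference, and the counts include them. With co-culture against IL-1β 7 rose and 6 fell, beside 11.9% and 10.1%, and with co-culture against control 33 rose and 14 fell, beside 21.8% and 12.2%. These p-values, from the same limma fit with Benjamini-Hochberg adjustment over all 11732 tested genes, cover genes selected with earlier results of these data known.

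Other sarcomere and Z-disc genes split, with 12 of 19 tested higher and 6 lower with IL-1β, beside 26.5% and 20.2% of all tested genes. Ankrd1, a stretch-responsive titin-binding protein, averaged 51.1 ± 1.26 FPKM with co-culture, 51.0 ± 1.64 with IL-1β and 14.8 ± 1.00 in control (SD, n = 3 each). It rose with IL-1β against control by a log2 change of 1.72 ± 0.05 (SE, limma adjusted p = 1.39e-09). Actc1, the actin of heart and embryonic skeletal muscle, averaged 124 ± 4.30 FPKM with co-culture, 141 ± 6.60 with IL-1β and 56.6 ± 0.633 in control (SD, n = 3 each). The same comparison gave it 1.30 ± 0.04 on the log2 scale (SE, limma adjusted p = 2.29e-09). As a close relative of Acta1 it carries the same uncertainty. Of their sum, Acta1 held 38.0 ± 0.455 percent with co-culture, 38.6 ± 1.72 with IL-1β and 34.2 ± 1.65 in control (SD, n = 3 each). Cryab, a chaperone that binds desmin, and Fhl1, a LIM protein of striated muscle, both fell with IL-1β: Cryab averaged 23.4 ± 0.196 FPKM with co-culture, 18.7 ± 0.675 with IL-1β and 50.4 ± 2.72 in control (SD, n = 3 each). Fhl1 averaged 42.8 ± 0.396 FPKM with co-culture, 29.6 ± 0.494 with IL-1β and 77.4 ± 2.38 in control (SD, n = 3 each). Both genes rose with co-culture against IL-1β, Cryab by a log2 change of 0.30 (limma adjusted p = 0.000924) and Fhl1 by 0.52 (adjusted p = 3.07e-06).

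Other calcium and excitation genes rose in 12 of 16 cases with IL-1β and none fell, beside 26.5% and 20.2% of all tested genes. Several of these 12, Pvalb and Jsrp1 among them, reached 1 FPKM in no control library, so that the filter itself favoured a difference. Pvalb, a calcium buffer of fast fibres, measured 10.8, 9.93 and 10.2 FPKM with co-culture, 48.2, 33.9 and 35.4 FPKM with IL-1β and 0, 0 and 0 FPKM in control, and being listed at 0 in every control library it is given no fold against control. It fell with co-culture against IL-1β to 0.263 times the IL-1β mean (limma adjusted p = 3.41e-06). Jph2, which couples the calcium store to the surface membrane, averaged 47.8 ± 1.45 FPKM with co-culture, 61.1 ± 1.59 with IL-1β and 36.5 ± 1.16 in control (SD, n = 3 each) and also fell with co-culture against IL-1β (log2 change -0.35, limma adjusted p = 0.000121). Srl averaged 8.44 ± 0.461 FPKM with co-culture, 8.34 ± 0.167 with IL-1β and 3.53 ± 0.302 in control (SD, n = 3 each), and Jsrp1 averaged 2.18 ± 0.295 FPKM with co-culture, 2.34 ± 0.474 with IL-1β and 0.84 ± 0.08 in control (SD, n = 3 each). Both encode proteins of the calcium store.

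Among other membrane genes 6 of 14 rose and 7 fell with IL-1β, and among other lineage and fusion genes 6 of 13 rose and 3 fell. Of all tested genes, 26.5% rose and 20.2% fell in that comparison. Itga7, the laminin receptor of muscle, averaged 4.41 ± 0.351 FPKM with co-culture, 4.94 ± 0.139 with IL-1β and 1.31 ± 0.0379 in control (SD, n = 3 each). Its log2 change with IL-1β against control was 1.36 ± 0.06 (SE, limma adjusted p = 6.88e-08). Tmem8c, an earlier symbol of the fusion protein myomaker, averaged 8.79 ± 1.43 FPKM with co-culture, 9.28 ± 0.781 with IL-1β and 4.45 ± 0.774 in control (SD, n = 3 each), and rose with IL-1β by 0.92 ± 0.12 on the log2 scale (SE, limma adjusted p = 0.000161). In contrast, Boc, a co-receptor of muscle differentiation, averaged 13.2 ± 0.39 FPKM with co-culture, 12.4 ± 0.685 with IL-1β and 19.9 ± 0.501 in control (SD, n = 3 each). It fell with IL-1β against control with a log2 change of -0.64 ± 0.05 (SE, limma adjusted p = 1.96e-06).

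Dag1, the dystroglycan of the membrane complex, averaged 67.4 ± 1.33 FPKM with co-culture, 77.0 ± 0.452 with IL-1β and 52.1 ± 0.47 in control (SD, n = 3 each). Sgcd, a sarcoglycan, averaged 12.1 ± 0.3 FPKM with co-culture, 11.6 ± 1.22 with IL-1β and 17.6 ± 0.886 in control (SD, n = 3 each). Sgcd fell with IL-1β while Dag1 rose (limma adjusted p = 8.82e-05 for Sgcd and 6.84e-08 for Dag1). Megf10, a receptor of muscle precursors, averaged 1.80 ± 0.0666 FPKM with co-culture, 2.15 ± 0.261 with IL-1β and 0.71 ± 0.0872 in control (SD, n = 3 each). It rose with IL-1β (limma adjusted p = 1.46e-05), but no control library reached 1 FPKM, so the filter itself favoured a difference. Of 6 tested metabolic genes outside the list, 1 rose with IL-1β, beside 26.5% of all tested genes. This was Pfkm, the muscle phosphofructokinase, which averaged 25.3 ± 0.607 FPKM with co-culture, 26.3 ± 0.815 with IL-1β and 22.0 ± 1.14 in control (SD, n = 3 each), with a limma adjusted p = 0.00109. Myoglobin (Mb) averaged 4.27 ± 0.913 FPKM with co-culture, 4.83 ± 0.994 with IL-1β and 5.42 ± 0.482 in control (SD, n = 3 each). Cox6a2, a muscle form of a cytochrome oxidase subunit, averaged 7.26 ± 1.66 FPKM with co-culture, 5.27 ± 2.04 with IL-1β and 4.31 ± 0.652 in control (SD, n = 3 each). Pgam2, the muscle phosphoglycerate mutase, averaged 1.35 ± 0.225 FPKM with co-culture, 1.30 ± 0.499 with IL-1β and 0.9 ± 0.276 in control (SD, n = 3 each). None of the 3 passed in any comparison.

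**Figure D5:**
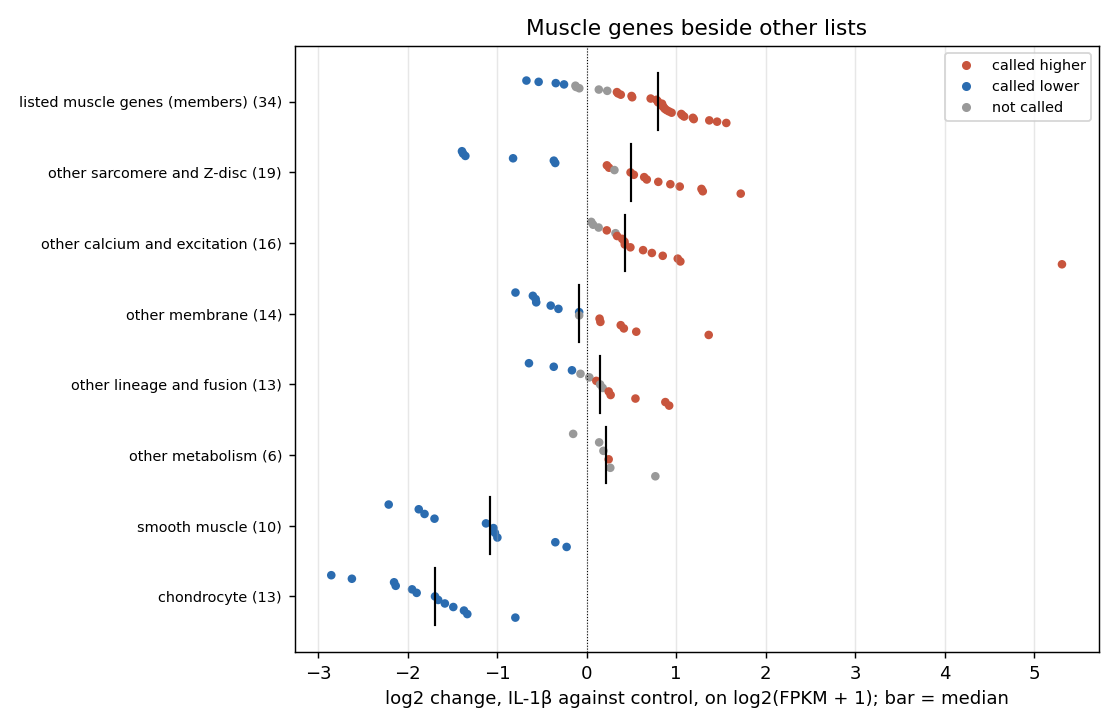
Log2 change with IL-1β against control for every tested gene of the muscle list, of the further muscle lists and of the lists of smooth muscle and cartilage markers, with 1 point per gene, the number of tested genes in brackets and a bar at the median. The muscle list has its median at 0.80, the further sarcomere list at 0.49, smooth muscle at -1.08 and cartilage at -1.69.

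Marker lists of other cell types moved with these groups, and their part in the results was not tested. The counts of markers stand beside 26.5% of all tested genes called higher and 20.2% called lower with IL-1β. All 10 tested smooth muscle markers of 11 were lower with IL-1β than in control, and their summed level ranged over 1604 to 1719 FPKM with co-culture, 1224 to 1270 with IL-1β and 2584 to 2643 in control. Acta2, the smooth muscle actin, averaged 284 ± 24.4 FPKM with co-culture, 189 ± 3.66 with IL-1β and 665 ± 7.52 in control (SD, n = 3 each), opposite in direction to Acta1. The 14 cartilage markers in the table summed to 669 to 729 FPKM with co-culture, 483 to 506 with IL-1β and 2063 to 2153 in control, and all 13 tested were lower with IL-1β. Of 11 cardiac markers 6 were in the table, with sums of 2.88 to 4.12 FPKM with co-culture, 2.14 to 3.11 with IL-1β and 3.69 to 4.59 in control, and Myh6, the heavy chain of heart, reached at most 0.03 FPKM.

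The 10 dermal fibroblast markers summed to 200 to 219 FPKM with co-culture, 231 to 238 with IL-1β and 144 to 148 in control. Of the 4 tested, 2 rose and 1 fell with IL-1β, beside 26.5% and 20.2% of all tested genes. Macrophage markers summed to 20.0 to 20.4 FPKM with co-culture, 21.4 to 23.8 with IL-1β and 24.4 to 25.6 in control. Cd14 was the largest part of that sum in every group. Csf1r and Ptprc were under the filter, at no more than 0.42 and 0.1 FPKM. Of the 4 tested, Cd68 and Cd14 rose and Lyz2 fell with IL-1β: Cd68 averaged 2.68 ± 0.17 FPKM with co-culture, 3.66 ± 0.193 with IL-1β and 2.02 ± 0.117 in control (SD, n = 3 each). Cd14 averaged 13.9 ± 0.213 FPKM with co-culture, 15.9 ± 0.965 with IL-1β and 12.02 ± 0.29 in control (SD, n = 3 each), and Lyz2 averaged 2.60 ± 0.497 FPKM with co-culture, 1.96 ± 0.0513 with IL-1β and 9.20 ± 0.83 in control (SD, n = 3 each). Tendon markers summed to 23.9 to 26.7 FPKM with co-culture, 18.8 to 23.2 with IL-1β and 37.8 to 40.4 in control. Schwann cell markers summed to 22.7 to 26.5 FPKM with co-culture, 27.5 to 30.6 with IL-1β and 31.4 to 35.1 in control. Adipocyte markers summed to 33.9 to 49.99 FPKM with co-culture, 158 to 186 with IL-1β and 14.6 to 21.4 in control, and this was nearly all the level of a single gene, Fabp4. Adipoq and Plin1, which define fat cells, were under the filter and below control in every IL-1β library: Adipoq averaged 0.0933 ± 0.0289 FPKM with co-culture, 0.127 ± 0.0862 with IL-1β and 0.48 ± 0.191 in control (SD, n = 3 each). Plin1 averaged 0.157 ± 0.0351 FPKM with co-culture, 0.113 ± 0.115 with IL-1β and 0.683 ± 0.0635 in control (SD, n = 3 each). Endothelial markers did not exceed 1.17 FPKM in sum, and the summed level of the 2 measured erythroid markers did not exceed 0.22 FPKM.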

How the data were processed

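The authors' deposited table holds FPKM per gene for 9 libraries of poly(A)-selected RNA (per the labels' protocols). The submitters' processing notes name GRCm38, a mouse assembly, while the gene IDs are of the rat; the sources used here name no aligner, counter or strand setting. Since FPKM are not counts, limma 3.58.1 (R 4.3.3) was fitted to log2(FPKM + 1) with a mean-variance trend, on all 9 libraries with 3 group means, for genes at 1 FPKM or more in at least 3 libraries (11732 of 17588), with two-sided Benjamini-Hochberg adjustment. The pseudocount understates the change of low genes. Calculations and plots used Python 3.11.15, pandas 2.3.3 and matplotlib 3.10.9. The fit was tested on simulated data. Samples were grouped by the titles; replicate numbers did not pair them (correlations of same-numbered deviations of -0.0907 to 0.0855). Replicates shared at most 0.912% identical values among tested genes.

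The muscle genes and the further lists were chosen with earlier results of these data known. Listed genes with a group mean of at least 5 FPKM are given by library, other tested ones by mean and SD, and the rest by their range or mean. From each further muscle list up to 4 tested genes with the smallest moderated F p were named, apart from some not reported here, and cell type lists are given by their sums; Chrnb1, Acta2, Col2a1, Fabp4, Adipoq, Plin1, Cd68, Cd14, Lyz2 and Myh6 were named after their values were seen. Alternatives were other pseudocounts, filters, scalings, a fit without trend, single-comparison fits, a replicate block and each library left out.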

Additional observations from a re-analysis of the deposited data

How the results depend on the processing

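Counts of called muscle genes, both directions together, stayed within 1.5 times of the values reported under every alternative run but a stricter filter. With a mean of at least 5 FPKM required, fewer genes were tested, 20 of the list instead of 34. Of these 20, 2 were called with co-culture against IL-1β (4 of 34 in the fit reported). With co-culture against control 19 of 20 were called (29 of 34). Of the further muscle genes, 26 were then called with IL-1β against control (53) and 23 with co-culture against control (47). For this filter and the other alternatives, the share of all genes called is not given, so these counts have no background beside them. Leaving out 1 library at a time gave 27 to 29 listed genes called with IL-1β against control, 3 to 5 with co-culture against IL-1β and 28 to 29 with co-culture against control. By direction, listed genes called higher with co-culture against IL-1β numbered 5 with no filter and with quantile normalization (3 reported). Those called lower in that comparison numbered 0 with no filter and in 4 fits without 1 library (1 reported, Acta1). With the replicate number as a block, the listed genes gave 29, 4 and 29 calls in the same order and the further muscle genes 50, 12 and 48, against 53, 13 and 47 without it; the numbers do not pair the samples.

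Of single genes, Mef2c with co-culture against IL-1β was called under quantile normalization (0.25) and without co-culture replicate 1 (0.29), and Cav3 without co-culture replicate 3 (0.40). The call of Acta1 in that comparison was also lost with no filter (-0.21). No direction reversed among the 21 genes given by library. The ratio of summed FPKM, IL-1β against control, was 1.72 after rescaling libraries to a common sum (1.80 without). The cause of these shifts was not tested, apart from the number of genes tested. Read depth is unknown, so genes near or under 1 FPKM carry an error that cannot be stated.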
